A study of Saccharomyces cerevisiae with 32 samples.

Results

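The core glycolytic enzyme genes of budding yeast were examined for their response to heat shock. They were taken by name from the textbook pathway, though with earlier results of these data known. The 10 genes were PGI1, PFK1, PFK2, FBA1, TPI1, PGK1, GPM1, ENO1, ENO2 and CDC19. All 10 had a tested RNA probe, among 6683 tested of 7056 on the gene arrays. On the chromatin immunoprecipitation (ChIP) arrays, 8 of the 10 had a named region at the 5' end, 10 regions in all of 7047. Of these, 8 regions of 6 genes had enough values to be tested, among 6392 tested regions. PGK1 and ENO2 had no region named at the 5' end and their promoters were not analysed here.

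Cultures of Saccharomyces cerevisiae in YPD medium at 25 °C and an OD600 near 0.8 received either heated medium, giving 37 °C for 15 min, or medium at 25 °C for the same time (mock). ChIP arrays compared heat shocked with mock treated cells directly, after fixation in 1% formaldehyde for 2 h, in strains carrying HA-tagged TBP, TAF1, Spt3, Mot1 or Bdf1 and in a strain labelled Null, with 4 arrays each. A further 4 ChIP arrays of input DNA from the TAF1 and Spt3 strains entered the same model. They shared its spread, its channel effect and its filter on missing values. The fit took 1 spread per region from all 28 ChIP arrays, so standard errors are not those of a factor's own arrays. The input arrays were quieter, with a median absolute deviation over regions of 0.10 to 0.14, against 0.27 to 0.37 in Mot1. How the errors change without the input arrays was not tested. RNA came from the strain labelled Null (BY4741), with 2 arrays of heat shocked against mock treated cells and 2 of mock treated cells in both channels. Nothing in the labels says that arrays of a group came from separate cultures. The p-values therefore measure the spread between arrays, for ChIP pooled over all groups, which may be technical.

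Glycolysis turns glucose into pyruvate in the cytoplasm and is the main source of ATP for yeast growing by fermentation. Its genes are among the most strongly transcribed in the yeast genome, and the transcription factors Rap1 and Gcr1 are known to drive many of them. At a promoter, TBP (the TATA-binding protein) can be delivered by TFIID, of which TAF1 is a subunit, or with the help of SAGA, whose subunit Spt3 contacts TBP. Mot1 is an ATPase that takes TBP off DNA. Bdf1 binds acetylated histones through its bromodomains and works with TFIID.

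Each value below is a log2 ratio, heat shocked over mock treated, set relative to the median of its array, and errors of fitted effects are standard errors. An effect was called at a limma adjusted p under 0.05 over all probes or regions. Which channel of the 2-colour ratio was the numerator is not stated, so both directions are likely ones only. RNA was read so that chaperone RNAs rose, as for HSP104, the disaggregase, at 3.02. ChIP was read so that TBP ran with RNA at such genes (0.98 ± 0.16 at HSP104). Under the other reading every ChIP sign below turns round while sizes and total counts stay. Each array held 6644 to 6953 ChIP values or 6865 to 6944 RNA values, and the number of arrays limits the precision. Regions were named by 1 gene, and they were placed to its right, again by inference. Among 1330 regions between tandem Crick-strand genes, TBP effects ran with RNA of that gene (Spearman rho 0.42), against -0.022 for its right neighbour. Among 1370 Watson-strand regions the reverse held (-0.023 for the naming gene and 0.46 for the neighbour). This is a description of these arrays, and the regions share them.

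RNA of TPI1 and PFK1 fell after heat shock, and no glycolytic gene was called higher. The 2 of 10 that fell are a share close to that of all probes, of which 19.9% fell and 19.4% rose, so the count is no result about the glycolytic genes. Their median was -0.38, against 0.012 over all probes, and 9 of 10 estimates lay below 0. The size of the typical change was that of the typical probe, with a median absolute effect of 0.38 in the glycolytic genes and 0.40 over all probes. Without adjustment, 5 of the 10 had p under 0.05. Of all probes 39.3% were called even after adjustment, so this count too is no result about these genes. In whole cultures, fewer cells holding a transcript and less of it per cell cannot be told apart. Both channels of the mock arrays held mock treated cells, so the sign of the mock values below is arbitrary.

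In the upper part of the pathway, the clearest falls were of TPI1 and PFK1. TPI1, the triose phosphate isomerase gene, was at -0.69 and -1.05 on the heat arrays, against 0.15 and 0.05 on the mock arrays. The heat arrays lay below both mock arrays, and the fitted effect was -0.87 ± 0.17 (adjusted p = 0.0043), a level 0.548 times that of mock treated cells. The call was lost without heat array B (-0.59, adjusted p = 0.149). PFK1 encodes the alpha subunit of phosphofructokinase, which commits sugar to glycolysis. It was at -0.76 and -0.44 on the heat arrays and at 0.0013 and -0.33 on the mock arrays. The groups did not overlap, under either sign of the mock values. The effect was -0.60 ± 0.18 (0.031), and it lost its call without heat array A (-0.28, 0.501), heat array B (-0.93, 0.075) or mock array A (-0.60, 0.0629). PFK2, the beta subunit gene, was at -0.47 and -0.047, against 0.081 and -0.027 on the mock arrays (-0.26 ± 0.16, 0.247).

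PGI1, the glucose-6-phosphate isomerase gene, and FBA1, the aldolase gene, had intermediate estimates that missed the threshold. PGI1 was at -0.17 and -0.63 on the heat arrays, against -0.26 and -0.0068 on the mock arrays (-0.40 ± 0.16, adjusted p = 0.0846). The groups overlapped, but would not with both mock signs turned round. FBA1 was at -0.61 and -0.29, against 0.070 and -0.22 (-0.45 ± 0.17, 0.0705), with no overlap.

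In the lower part of the pathway no gene was called. PGK1, the phosphoglycerate kinase gene, had the single estimate above 0, with 0.15 and 0.28 on the heat arrays and 0.065 and -0.019 on the mock arrays (0.21 ± 0.16, adjusted p = 0.322). GPM1, the phosphoglycerate mutase gene, was at 0.16 and -0.44, against 0.053 and 0.26 (-0.14 ± 0.19, 0.609), and the heat arrays fell on opposite sides of 0. The enolase genes ENO1 (-0.073 ± 0.16, 0.744) and ENO2 (-0.37 ± 0.20, 0.186) encode near-identical proteins, so their probes may share signal and their values are uncertain. ENO1 was at -0.29 and 0.14, against 0.044 and 0.18, and ENO2 at -0.63 and -0.11, against -0.19 and -0.31. Both overlapped the mock arrays, but ENO2 would not with both mock signs turned round. CDC19, the main pyruvate kinase gene, was at -0.67 and -0.19, against 0.064 and 0.094 (-0.43 ± 0.16, 0.0644), below both mock arrays.

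**Figure D1:**
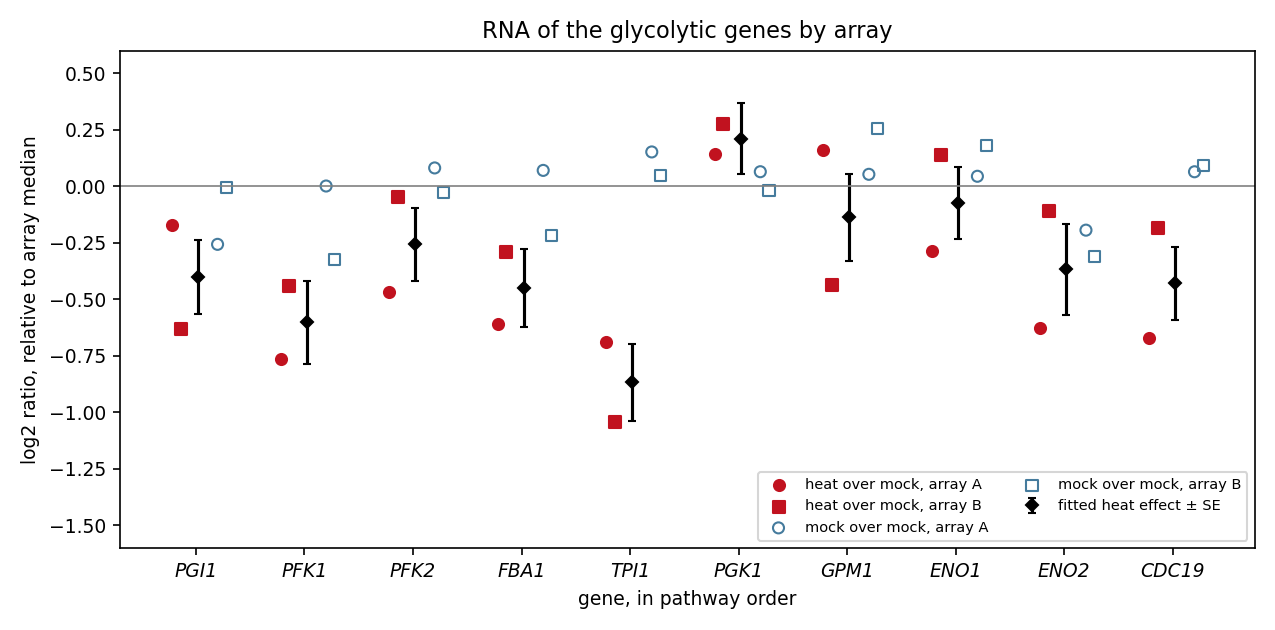
RNA log2 ratios of the 10 glycolytic genes in pathway order, with the 2 heat over mock arrays (filled), the fitted heat effect with its standard error (diamond) and the 2 mock over mock arrays (open). TPI1 lies lowest at -0.87 and PGK1 is the single estimate above 0, at 0.21.

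RNA of other genes around the pathway was read by list, against 19.4% of all probes that rose and 19.9% that fell. Lists of 3 to 8 genes make such shares coarse. Of 7 other enzymes of glycolysis 4 rose and 1 fell (median 0.47). HXK1 and GLK1, which encode a hexokinase and the glucokinase, rose by 5.12 ± 0.16 (adjusted p = 9.78e-07) and 3.60 ± 0.16 (3.9e-06). PYK2, the minor pyruvate kinase gene, rose by 2.06 ± 0.16 (3.52e-05) and TDH1, a glyceraldehyde phosphate dehydrogenase gene, by 0.47 ± 0.16 (0.0481). HXK2, the hexokinase gene of growth on glucose, was at -1.12 ± 0.17 (0.00101). TDH2 (-0.12 ± 0.16, 0.575) and TDH3 (-0.031 ± 0.16, 0.892) were not called. The TDH1 call was lost without any 1 of the 4 RNA arrays (adjusted p from 0.0596 to 0.428), and that of HXK2 without heat array A (0.057).

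Of 5 minor paralogs of phosphoglycerate mutase and enolase, GPM2 rose by 2.65 ± 0.17 (adjusted p = 1.37e-05) and GPM3 was at -0.71 ± 0.17 (0.0112). Of 3 genes of fructose 2,6-bisphosphate metabolism, which tunes phosphofructokinase, PFK26 rose by 1.42 ± 0.18 (0.000424) and FBP26 by 1.03 ± 0.21 (0.00486). Of 5 gluconeogenesis genes, which run the pathway backwards, PYC1 (2.40 ± 0.16, 1.91e-05), PCK1 (0.66 ± 0.18, 0.0218) and PYC2 (0.55 ± 0.16, 0.0243) rose. Fermentation and regulation had 1 call each. Of 8 genes of ethanol fermentation ADH4 fell (-0.59 ± 0.16, 0.0196), and of 6 regulators RAP1 rose (1.27 ± 0.18, 0.000685). With 1 RNA array left out, calls were lost for GPM3 and FBP26 (either heat array, adjusted p from 0.103 to 0.166), for PCK1 (either heat array, up to 0.345), for PYC2 and ADH4 (either heat array or mock array A, up to 0.214) and for RAP1 (heat array A, 0.0579).

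At the 5' regions, Mot1 had the most calls. Mot1 was higher after heat shock at 4 of the 8 tested regions, those of PGI1, FBA1, GPM1 and CDC19, against 8.57% of all regions. Spt3 was higher at 3 (PGI1, FBA1 and GPM1), against 3.88%. TBP was higher at 2 (GPM1 and ENO1), against 8.35%, and TAF1 at 1 (ENO1), against 12.2%. Bdf1 had 0 calls in limma, with 1 region at an unadjusted p under 0.05, against 16.2% of all regions called in either direction. The Null strain had 0 calls, with 1 region at an unadjusted p under 0.05, against 0.0313%. No region was called lower in any group.

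The median effect over the 8 regions was 0.43 for Mot1, 0.21 for Spt3, 0.057 for TBP, -0.0075 for TAF1, -0.0045 for Bdf1 and -0.015 for Null, while the medians over all regions lay between -0.020 and 0.0056. Of the 5 factors, Mot1 had the highest effect at 5 of the 8 regions and at 27.4% of all regions. These effects are relative to the array medians. Without centring, the Mot1 median over all regions was -1.16 and all 8 Mot1 effects at the glycolytic regions lay below 0, between -0.30 and -1.11. Uncentred, the median over all regions was 0.18 in TBP, -0.15 in TAF1, -0.16 in Spt3, -0.20 in Bdf1 and -0.91 in Null.

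**Figure D2:**
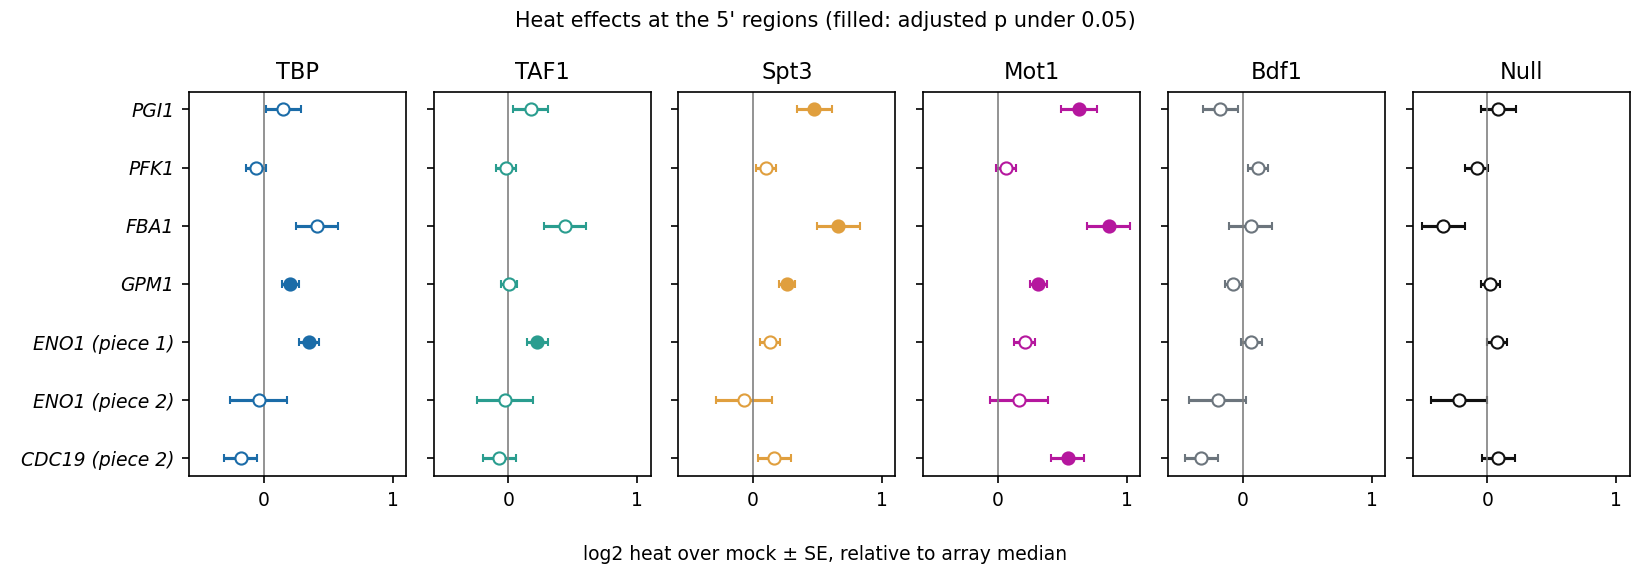
Fitted heat effects with standard errors at 7 tested 5' regions (rows) in TBP, TAF1, Spt3, Mot1, Bdf1 and Null, as log2 of heat over mock relative to array medians, with filled points for an adjusted p under 0.05. Mot1 was called at 4 regions, up to 0.86 at FBA1, and these turn to values below 0 without centring; piece 1 of the CDC19 region, with standard errors of 0.83 to 0.97, is not drawn.

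PGI1 encodes the enzyme that turns glucose-6-phosphate into fructose-6-phosphate. Its 5' region borders the 3' end of YBR197C. Mot1 replicates A to D there were at 0.055, 0.95, 0.99 and 0.56, against 0.50, -0.20, -0.088 and 0.13 in Null. Spt3 replicates B to E were at 0.70, 0.36, 0.26 and 0.59. All Mot1 and Spt3 arrays were above 0, and both sets overlapped Null, whose replicate A was high.

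The fitted effects at PGI1 were 0.63 ± 0.14 for Mot1 (adjusted p = 0.00359), a ratio of 1.55, and 0.48 ± 0.14 for Spt3 (0.0422). TBP (0.15 ± 0.14, 0.549), TAF1 (0.17 ± 0.14, 0.411), Bdf1 (-0.17 ± 0.14, 0.439) and Null (0.086 ± 0.14, 0.80) were not called. The Spt3 call was lost without Spt3 replicate B, C or E (0.39 to 0.52, adjusted p from 0.0935 to 0.266). The Mot1 call held when each Mot1 array was left out in turn.

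PFK1, whose RNA fell, had no call in any group at its 5' region. Values there ran from -0.17 to 0.11 in TBP, -0.43 to 0.23 in TAF1, -0.081 to 0.38 in Spt3, -0.085 to 0.15 in Mot1, -0.0076 to 0.32 in Bdf1 and, on 3 arrays, -0.16 to 0.13 in Null. All groups overlapped, and the effects lay between -0.082 ± 0.090 (Null) and 0.12 ± 0.079 (Bdf1). PFK2 shares its 5' region with the divergent gene YMR206W. That region held 20 values of 28 and 1 in Null, and was not tested. Its values spread widely, from -3.59 to -0.049 in Mot1 and from 0.54 to 6.91 in Bdf1. As deposited, before turning by channel, 18 of the 20 were below 0.

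FBA1 encodes fructose-bisphosphate aldolase, which splits the sugar into trioses, and its 5' region had the largest called effects of the set in Mot1 and Spt3. Mot1 replicates A to D were at 0.23, 1.05, 1.31 and 0.91, and Spt3 replicates B to E at 0.62, 0.69, 0.46 and 0.87. TBP was at 0.44, 0.13, 0.67 and 0.40 and TAF1 at 0.67, 0.55, 0.27 and 0.24, against -0.98, -0.62, 0.10 and 0.13 in Null. All 16 arrays of these factors were above 0. Mot1, Spt3 and TAF1 lay wholly above Null, and the lowest TBP array came just under the highest Null array.

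At FBA1 the Mot1 effect was 0.86 ± 0.17 (adjusted p = 0.00123), a ratio of 1.82, which placed it at rank 114 of 6392 regions. Spt3 was at 0.66 ± 0.16 (0.0194), rank 128. TAF1 at 0.44 ± 0.16 (0.0612) and TBP at 0.41 ± 0.16 (0.109) missed the threshold, as did Bdf1 at 0.064 ± 0.17 (0.833). Null was at -0.34 ± 0.16 (0.249). The Spt3 call was lost without Spt3 replicate B, C or E (0.60 to 0.66, adjusted p from 0.0757 to 0.0954), while the Mot1 call held in every fit with 1 Mot1 array left out.

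TPI1, the gene with the largest RNA fall here, had a 5' region with 24 values of 28 and Bdf1 values on 2 arrays, so it was not tested. TBP was at 0.26, 0.31, -0.71 and 0.061, and Mot1 at -0.80, 0.37, -0.37 and 0.92, against -2.57, 1.93, -1.68 and 2.54 in Null. Spt3 was at 0.16, 2.45 and -0.30. All of these arrays lay within the span of the Null arrays.

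GPM1 encodes phosphoglycerate mutase. Its 5' region borders the 3' end of NNR2, whose RNA rose by 3.44 ± 0.16 (adjusted p = 4.13e-06). Mot1 was at 0.076, 0.42, 0.26 and 0.43 and Spt3 at 0.28, 0.27, 0.32 and 0.18. TBP was at 0.31, -0.005, 0.27 and 0.26, against 0.14, -0.055 and 0.023 in Null. The Spt3 arrays lay wholly above Null, while 1 Mot1 array and 1 TBP array fell within its range.

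The GPM1 effects were small and precise, with 0.31 ± 0.066 for Mot1 (adjusted p = 0.00263), 0.26 ± 0.064 for Spt3 (0.0194) and 0.21 ± 0.064 for TBP (0.0369). TAF1 was at 0.0062 ± 0.064 (0.96), Bdf1 at -0.073 ± 0.066 (0.495) and Null at 0.024 ± 0.075 (0.91). The Spt3 call was lost without any 1 of the 4 Spt3 arrays (adjusted p from 0.053 to 0.0939), and the TBP call without TBP replicate A, C or D (0.16 to 0.20, 0.129 to 0.244).

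ENO1 shares its 5' region with PUP2, a proteasome subunit gene whose RNA rose by 0.75 ± 0.16 (adjusted p = 0.00597), and the array held the region as 2 pieces. In piece 1 TBP was at 0.47, 0.18, 0.61 and 0.17 and TAF1 at 0.32, 0.10, 0.44 and 0.036, against 0.10, 0.21, -0.085 and 0.063 in Null. All TBP and TAF1 arrays were above 0 and their lower members overlapped Null. The effects were 0.35 ± 0.079 for TBP (0.00438) and 0.23 ± 0.079 for TAF1 (0.0462). Mot1 (0.21 ± 0.081, 0.0976), Spt3 (0.13 ± 0.079, 0.375), Bdf1 (0.068 ± 0.081, 0.624) and Null (0.074 ± 0.079, 0.682) were not called.

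The pieces of the ENO1 region differed. The TBP call in piece 1 held without each TBP array, whereas the TAF1 call was lost without TAF1 replicate A, B or C (0.17 to 0.25, adjusted p from 0.08 to 0.221). Without Mot1 replicate B, Mot1 was called (0.28, 0.0475). In piece 2 no group was called, with effects between -0.22 ± 0.22 (Null) and 0.16 ± 0.22 (Mot1). Null replicate A at -1.63 and Spt3 replicate B at -0.87 stood low there. The region lies before both ENO1 and PUP2, and which gene a value belongs to cannot be told apart.

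CDC19 shares its 5' region with CYC3, a cytochrome c haem lyase gene whose RNA rose by 0.81 ± 0.20 (adjusted p = 0.012), again as 2 pieces. In piece 2 Mot1 was at 0.53, 1.02, 0.30 and 0.31, against 0.22, 0.35, -0.24 and 0.0096 in Null, and Bdf1 was at -0.77, 0.030, -0.41 and -0.14. The Mot1 arrays lay wholly above Bdf1, and the lower Mot1 arrays fell within the Null range. Mot1 was at 0.54 ± 0.13 (0.00709), but without Mot1 replicate B it was at 0.39 (0.0786). No other group was called, with TBP at -0.18 ± 0.13 (0.426), TAF1 at -0.070 ± 0.13 (0.755), Spt3 at 0.16 ± 0.13 (0.521), Bdf1 at -0.32 ± 0.13 (0.0924) and Null at 0.085 ± 0.13 (0.783). Without Bdf1 replicate B, Bdf1 was called lower (-0.43, 0.0449).

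Piece 1 of the CDC19 region was far noisier, with standard errors of 0.83 to 0.97 against 0.13 in piece 2. TBP was at 2.78, -3.23 and -5.05 on 3 arrays and TAF1 at -1.82, 1.77, -0.74 and -2.93, against 0.20, -0.20 and 0.38 in Null. These arrays disagreed in sign within a group, and no effect was called. The TBP effect was -2.02 ± 0.97 (adjusted p = 0.203) and became -4.14 (0.00674) without TBP replicate B, so 1 array set it. TBP minus Null likewise became -4.16 (0.0383), against -1.96 ± 1.37 (0.414) with all arrays.

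**Figure D3:**
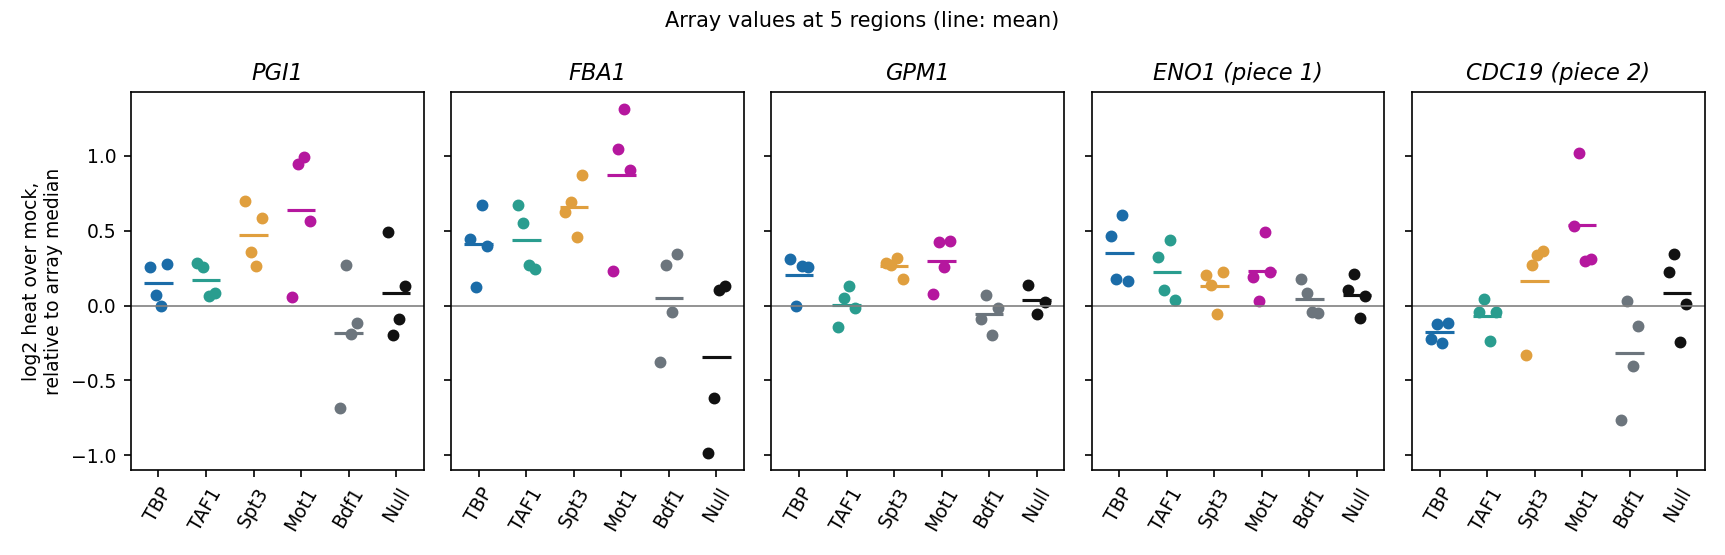
Array values (points) and their mean (line) at the 5' regions of PGI1, FBA1, GPM1, ENO1 (piece 1) and CDC19 (piece 2), as log2 of heat over mock relative to array medians, for 4 arrays per factor and 3 or 4 in Null. At FBA1 all Mot1, Spt3, TAF1 and TBP arrays lie above 0, while Null spreads from -0.98 to 0.13. The Mot1 effects turn to values below 0 without centring.

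Set against Null, 1 region stood out. At FBA1 the differences from Null were 1.20 ± 0.23 for Mot1 (adjusted p = 0.00288), 1.00 ± 0.23 for Spt3 (0.0369) and 0.78 ± 0.23 for TAF1 (0.032), and TBP just missed (0.75 ± 0.23, 0.0509). Each of these contrasts called 1 of 8 regions, against 5.02% of all regions for Mot1, 0.767% for Spt3 and 7.42% for TAF1, counting higher only. TBP minus Null called 0 regions in limma (2 at an unadjusted p under 0.05), against 6.96% of all regions in either direction, and Bdf1 minus Null 0 (1 at an unadjusted p under 0.05), against 8.71%.

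The FBA1 differences rested partly on the low Null values. Null replicates A and B had the wider spread over all regions, with a median absolute deviation of 0.53 and 0.41, against 0.17 and 0.15 in replicates C and D. Without both, the differences were 0.73 for Mot1 (adjusted p = 0.115), 0.54 for Spt3 (0.562) and 0.32 for TAF1 (0.506), all above 0 and none called. Leaving out Null replicate A gave 0.77 for Spt3 (0.113) and 0.54 for TAF1 (0.12), and leaving out replicate B gave 0.91 (0.0986) and 0.69 (0.084). The Spt3 difference also lost its call without Spt3 replicate B, C or E (0.0826 to 0.102), and TAF1 without TAF1 replicate A or B (0.105 and 0.0833). TBP minus Null was called without Null replicate C or D (0.90 and 0.93, 0.0235 and 0.0178). Mot1 minus Null was called at PGI1 without Mot1 replicate A (0.74, 0.0134) or Null replicate A (0.70, 0.0499), against 0.55 ± 0.19 (0.092) with all arrays, and at GPM1 without Mot1 replicate A (0.35, 0.0304), against 0.29 ± 0.099 (0.0827).

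The differences between factors were tested directly. Spt3 minus TAF1, which sets a SAGA subunit against a TFIID subunit, called 0 of 8 regions in limma, with 1 at an unadjusted p under 0.05, against 4.05% of all regions. Estimates were above 0 at 6 of 8, with 0.26 ± 0.091 at GPM1 (adjusted p = 0.118), 0.30 ± 0.19 at PGI1 (0.454) and 0.23 ± 0.23 at FBA1 (0.70). Mot1 minus TBP also called 0 (3 at an unadjusted p under 0.05), against 0.485%. Its estimates were above 0 at 7 of 8, with 0.72 ± 0.18 at CDC19 piece 2 (0.0651), 0.48 ± 0.19 at PGI1 (0.237) and 0.45 ± 0.23 at FBA1 (0.378).

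A pair of further contrasts was chosen after the values were seen, because the Bdf1 median stayed near 0. Bdf1 itself was at -0.32 at CDC19 piece 2 and at -0.17 at PGI1, neither called, and these values enter the differences. Mot1 minus Bdf1 was called higher at 4 of 8 regions, against 6.34% of all regions. Channel order was unbalanced in both groups. Heat was in channel 1 in Mot1 replicates A, B and C and in channel 2 in D. In Bdf1 it was in channel 2 in replicates A, B and D and in channel 1 in C. Both effects and their difference therefore depend on the channel effect that all arrays share. The differences were 0.86 ± 0.19 at CDC19 piece 2 (adjusted p = 0.0049), 0.80 ± 0.20 at PGI1 (0.013), 0.80 ± 0.24 at FBA1 (0.0374) and 0.39 ± 0.094 at GPM1 (0.0122). Without centring all 4 lay below 0, at -0.11 at CDC19 piece 2, -0.17 at PGI1, -0.18 at FBA1 and -0.60 at GPM1, and none was called. Spt3 minus Bdf1 was called higher at 2 of 8, against 4.15%, with 0.65 ± 0.19 at PGI1 (0.0455) and 0.34 ± 0.092 at GPM1 (0.029).

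These contrasts depended on single arrays to different degrees. At FBA1, Mot1 minus Bdf1 lost its call without Bdf1 replicate A or C or Mot1 replicate B, C or D (0.66 to 0.76, adjusted p from 0.0891 to 0.129). At GPM1 it was lost without Bdf1 replicate C (0.34, 0.0672) and at PGI1 without Bdf1 replicate A (0.65, 0.0554). At CDC19 piece 2 it held without any 1 array. For Spt3 minus Bdf1 the call at PGI1 was lost without any 1 of the Spt3 arrays or Bdf1 replicate A, C or D (0.49 to 0.72, 0.0512 to 0.158), and at GPM1 without Bdf1 replicate A, C or D or Spt3 replicate B, C or D (0.30 to 0.34, 0.0511 to 0.123). Without Spt3 replicate B it was called at CDC19 piece 2 (0.67, 0.0285), against 0.48 ± 0.18 (0.118) with all arrays.

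The 3' sides of the genes were read in the same way. Over 5 factors, 10 of 40 tests were called at the 5' regions, all higher, and 1 of 45 at the 9 tested 3' regions, against 13.6% of the tests of all regions called in either direction. That 1 was Bdf1 beyond the 3' end of ENO1, between ENO1 and COQ6, at -0.26 ± 0.082 (adjusted p = 0.0311). Bdf1 replicates A to D were at -0.00047, -0.013, -0.79 and -0.16 there, so replicate C set the value. Without it the effect was -0.057 (0.659), and without replicate D it was -0.28 (0.0625). The difference between the sides was not tested. Of the 9 regions, 6 are also the 5' region of a tandem neighbour and 3 lie between convergent genes. The Mot1 median was 0.43 at the 5' regions and 0.16 at the 3' regions.

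At the glycolytic genes with a region of their own, Mot1 calls came without RNA calls. Across 2286 other genes with 1 tandem region, the Mot1 effect and the RNA change had a Spearman rho of 0.33, a description over genes that share the same arrays. At 221 of those genes Mot1 was called higher, and RNA rose at 54.3% of them and fell at 10.4%. The estimate of RNA was below 0 at 21.7% of the 221. PGI1, FBA1 and GPM1, the glycolytic genes with such a region and a Mot1 call, all had an RNA estimate below 0 (-0.40, -0.45 and -0.14), and none of the 3 was called. PFK1, whose RNA fell, was at 0.061 in Mot1.

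**Figure D4:**
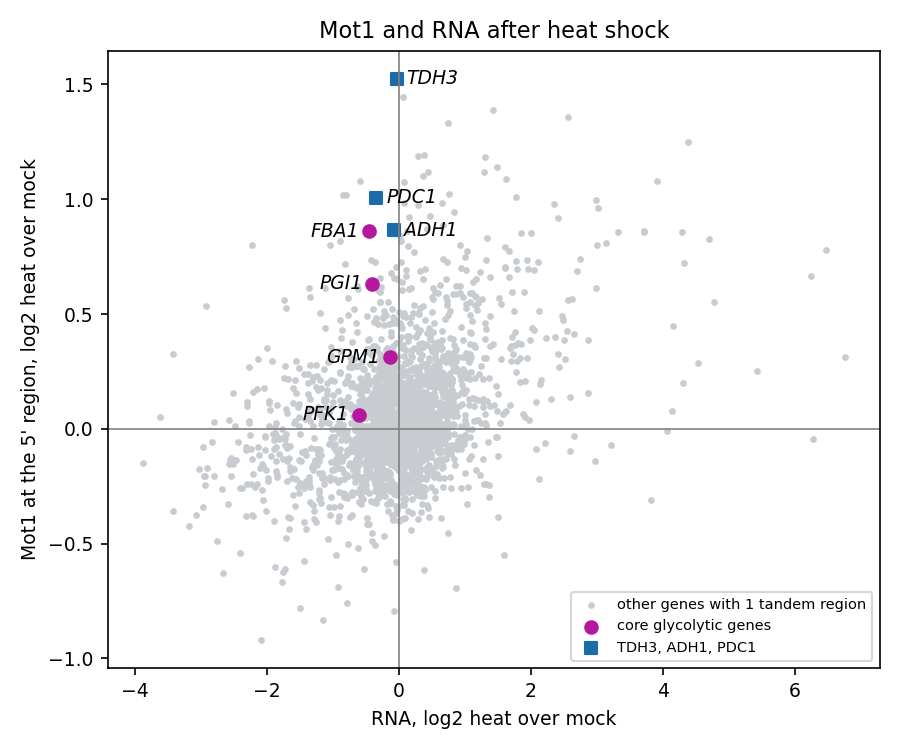
RNA change (horizontal axis) and Mot1 effect at the 5' region (vertical axis), both as log2 of heat over mock relative to array medians, for 2286 genes with 1 tandem region (grey), 4 core glycolytic genes (circles) and TDH3, PDC1 and ADH1 (squares, chosen after their values were seen). PGI1, FBA1 and GPM1 lie above 0 in Mot1 and below 0 in RNA, and their Mot1 effects turn to values below 0 without centring.

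Mot1 was also higher at the 5' regions of other main enzymes of the route to ethanol, relative to array medians. The 5' region of TDH3, the main glyceraldehyde phosphate dehydrogenase gene, was at 1.52 ± 0.17 in Mot1 (adjusted p = 3.23e-06), rank 5 of 6392, and at 0.90 ± 0.17 in Spt3 (0.00287). PDC1, the main pyruvate decarboxylase gene, was at 1.01 ± 0.15 (0.000114) in Mot1, and ADH1, the main alcohol dehydrogenase gene, at 0.86 ± 0.12 (5.57e-05). The Null values of these genes were -0.060, -0.051 and -0.071. HXK2 was at 0.61 ± 0.13 in Mot1 (0.00277). A piece of the 5' region of TYE7, a regulator of glycolytic genes, was at 0.88 ± 0.18 (0.00173). The other piece was at 0.24 ± 0.11 (0.196) and was not called. That region also borders YNCO0031W, and which gene a value belongs to cannot be told apart. Without centring, Mot1 was below 0 at PDC1 (-0.15), ADH1 (-0.30), HXK2 (-0.54) and TYE7 (-0.28), and at 0.37 at TDH3 (adjusted p = 0.31), with none of the 5 called.

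By list, Mot1 was higher at 3 and lower at 1 of 9 tested regions of the other glycolytic enzymes, higher at 3 and lower at 1 of 7 of ethanol fermentation, higher at 3 of 7 of the regulators, at 2 of 4 of gluconeogenesis, at 1 of 3 of the minor paralogs and at 0 of 3 of fructose 2,6-bisphosphate metabolism. Of all regions, 8.57% were called higher in Mot1 and 4.18% lower. Without centring, all of these higher regions but that of TDH3 lay below 0. The list medians ran from -0.083 in the minor paralogs to 0.31 in the other enzymes, against 0.0031 over all regions. FBP26, the fructose-2,6-bisphosphatase gene, differed in kind, with TAF1 at 1.02 ± 0.11 (adjusted p = 5.54e-06), TBP at 0.80 ± 0.11 (6.39e-05) and Bdf1 at 0.75 ± 0.11 (0.000112). Its RNA estimate was 1.03.

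The genes whose 6 effects (RNA and the 5 factors) lay nearest to the medians of the glycolytic genes were found by Euclidean distance among 4631 other genes with 1 region. They were BNS1 (distance 0.14), WSC4 (0.15), MFA2 (0.17), SMI1 (0.18) and PRP28 (0.22). BNS1 and SMI1 share 1 divergent region. MFA2, a mating pheromone gene, was the single one with a region of its own, with Mot1 at 0.48, Spt3 at 0.35 and RNA at -0.35.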

How the data were processed

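The values the authors deposited were uncentred log2 ratios between both channels, as taken from the values themselves. Scanning used GenePix Pro 4.0, per the labels; how background and normalization were handled is not given in the sources used here. Probes were named from the platform annotation, and neighbours from a RefSeq table (assembly R64, 6477 genes). No sequences or coordinates were used.

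Arrays were turned to heat over mock and centred on their medians. limma 3.58.1 in R 4.3.3 fitted all 28 ChIP arrays (1 coefficient per group, 1 channel effect per region, at least 3 values in every group) and the 4 RNA arrays (heat and channel, 4 values), with two-sided moderated tests and Benjamini-Hochberg adjustment over all features. The script was tested on simulated data. As deposited, the heat RNA arrays, whose channels were swapped, had a Pearson correlation of -0.68. Swapped ChIP pairs of the factors had a Spearman rho of -0.075 to -0.46. Values were therefore taken as not turned by condition.

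Members, lists and rules were chosen with earlier results of these data known. Named were all members, up to 5 called genes per other list, and the 5 genes of nearest profile; TDH3, PDC1 and ADH1 were shown together after their values were seen. Alternatives were other scaling, no centring, no channel effect, a replicate block, other filters and leaving out arrays.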

Additional observations from a re-analysis of the deposited data

Results flagged for a closer look

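Arrays that stood apart within a group of 4 were found by Dixon's ratio, over 43 group and region combinations at the tested 5' regions, of which 2 were flagged. Chance flags about 1 in 20 such groups. Both were Spt3 replicate B. At ENO1 piece 2 it was at -0.87, while the other Spt3 arrays lay between 0.10 and 0.27, and at CDC19 piece 2 it was at -0.33, while the others lay between 0.27 and 0.37. Spt3 replicate B also had the widest spread of the Spt3 arrays, with a median absolute deviation of 0.48 against 0.21 to 0.24 in the other Spt3 arrays. Without replicate B, Spt3 minus Bdf1 was called in limma at CDC19 piece 2 (0.67, adjusted p = 0.0285), and with all arrays it was not. Why replicate B stood low was not tested.

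Groups differed in their heat effect by a direct test in 9 cases. At FBA1 the differences from Null were 1.20 for Mot1, 1.00 for Spt3 and 0.78 for TAF1. Of all regions 5.02%, 0.767% and 7.42% were called higher in these contrasts. None of these FBA1 differences was called without the wider Null arrays, nor without centring. Mot1 minus Bdf1 was 0.86 at CDC19 piece 2, 0.80 at PGI1, 0.80 at FBA1 and 0.39 at GPM1, against 6.34% of all regions called higher. Without centring all of these lay below 0 and none was called. Spt3 minus Bdf1 was 0.65 at PGI1 and 0.34 at GPM1, against 4.15%, and neither was called without centring. The contrasts with Bdf1 were chosen after the values were seen.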

How the results depend on the processing

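With 1 array left out at a time, the members called ranged over 0 to 2 for RNA, 1 to 3 for TBP, 0 to 1 for TAF1, 0 to 2 for Spt3, 4 to 4 for Mot1 and 0 to 1 for Bdf1, and stayed at 0 for Null. They ranged over 0 to 1 for TBP, TAF1 and Spt3 minus Null, 1 to 3 for Mot1 minus Null, 2 to 4 for Mot1 minus Bdf1 and 0 to 2 for Spt3 minus Bdf1, and stayed at 0 for Bdf1 minus Null, Spt3 minus TAF1 and Mot1 minus TBP. No sign of a called member value reversed in these fits. Of 808 single member results, 748 kept their side of the threshold, 50 lost a call and 10 gained one. Signs were compared only where an effect was called. The share of all regions called moved too, from 7.07% to 14.9% for Mot1 and from 2.02% to 5.15% for Spt3. It ran from 6.38% to 9.68% for TBP, 9.78% to 18.2% for TAF1 and 6.71% to 14.5% for Bdf1. For RNA it ran from 17.6% to 37.6% of probes. Null reached 10.6% without Null replicate C and 5.51% without D, against 0.0313% with all arrays. The share ran from 4.32% to 10.3% for Mot1 minus Null, 5.1% to 10.2% for Mot1 minus Bdf1 and 3.18% to 7.46% for Spt3 minus Bdf1. With arrays scaled to equal spread 0 members were called for RNA, TAF1 and TAF1 minus Null, against 11.7%, 12.8% and 6.66% of all features. Without a channel effect 1 was called for RNA (22.5% of all probes) and 0 for TAF1 (17.8% of all regions). With values required on all 4 arrays of every group, which left 5 regions, 1 was called for TBP (13.1%). TBP minus Null had 1 (7.77%) and Spt3 minus Bdf1 had 1 (7.38%), and with no filter RNA had 1 (34.5%). Without the wider Null arrays 0 were called for TAF1, Spt3 and Mot1 minus Null, against 4.87%, 0.125% and 2.21% of all regions. The cause of these changes was not tested. Signal over background was not used here, so dim spots could not be set apart.

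Replicate letters did not pair the arrays: the residuals of 55 same-letter pairs correlated at -0.29 to 0.27, with 6 over 0.1, and 3 of 24 arrays correlated best with their own letter. With a replicate block calls were 0 for RNA (18.4% of all probes), 1 for TBP (9.14% of regions) and 2 for Mot1 (5.68%). TBP minus Null had 1 (7.45%). Spt3 minus Null (0.594%), Mot1 minus Bdf1 (4.41%) and Spt3 minus Bdf1 (4.11%) had 0. Of the 4 Mot1 calls that of FBA1 was kept, those of PGI1 (adjusted p = 0.0875), CDC19 (0.0915) and GPM1 (0.0878) were not, and ENO1 piece 1 was called (0.0457). TBP at GPM1 (0.141), Spt3 at PGI1 (0.0681) and the 4 Mot1 minus Bdf1 differences (0.0649 to 0.166) were not called, nor was Bdf1 at the 3' end of ENO1 (0.0513).

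Not centring changed most, by construction, since array medians then enter each effect. Calls became 0 for TBP, TAF1, Spt3, TAF1, Spt3 and Mot1 minus Null, Mot1 minus Bdf1 and Spt3 minus Bdf1, and became 7 for Null, 5 for TBP minus Null and 4 for Mot1 minus TBP, where 87.1%, 57.2% and 85.7% of all regions were called. Mot1 again had 4 calls, against 89.4% of all regions, but these were lower and at PFK1 (adjusted p = 0.00383), GPM1 (0.0155) and both pieces of ENO1 (0.00817 and 0.0069), so GPM1 alone was called with and without centring, higher and then lower. Signs turned for Mot1 at PGI1 (-0.53), PFK1 (-1.11), FBA1 (-0.30), GPM1 (-0.85), ENO1 (-0.95 and -0.996) and CDC19 (-0.62), and at the other genes' regions of TDH2 (-0.85), HXK2 (-0.54), ADH1 (-0.30), PDC1 (-0.15), PDC6 (-0.15), GPM2 (-0.75), PYC2 (-0.79), PCK1 (-0.73), GCR1 (-0.60 and -0.71) and TYE7 (-0.28). They turned for Null at PGI1 (-0.82), CDC19 (-0.82), GPM1 (-0.78) and ENO1 (-0.83), for TBP minus Null at MDH2 (0.28), for Mot1 minus TBP at PFK1 (-1.25), GPM1 (-1.26) and ENO1 (-1.15), and for Mot1 minus Bdf1 at HXK1 (-0.22), PGI1 (-0.17), ADH1 (-0.22), CDC19 (-0.11), GCR1 (-0.29), PCK1 (-0.30), GPM1 (-0.60) and FBA1 (-0.18). Signs were compared where the effect was called with or without centring.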
